A study of Mus musculus with 9 samples.

Results

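Cells that still expressed Sox9 on day 14 after kidney injury (d14) were compared, gene by gene, with proximal tubule cells of uninjured kidneys. The comparison used 6 of the 9 libraries of the series, 3 per group, and all 15519 genes with enough counts for a test. The uninjured cells came from Slc34a1IRES-CreERT2/+:R26RtdT/+ mice, in which tamoxifen turns on the red fluorescent protein tdTomato in cells that transcribe the proximal phosphate transporter gene Slc34a1. The d14 cells came from Sox9IRES-CreERT2/+:R26RtdT/+ mice with ischemia-reperfusion injury (IRI) of both kidneys, which received tamoxifen on days 10 and 12, so the label marks cells with an active Sox9 gene late after injury. The remaining 3 libraries, used here only to place the d14 state, came from the same Sox9 genotype given tamoxifen at the time of IRI and sorted at 48 h. All mice were males of 9 to 12 weeks and 25 to 30 g, and all groups carry one CreERT2 allele and one R26RtdT reporter allele. Cells were sorted by fluorescence from cortex and outer medulla, and polyadenylated RNA was sequenced.

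The Sox9 allele marks any cell type in which Sox9 is active, while the Slc34a1 allele marks one tubule segment. Injury, Cre allele and tamoxifen schedule differ together between the d14 and uninjured groups, so their shares in any difference cannot be told apart. No source used here says if the uninjured mice were sham-operated or if mice were pooled. In bulk RNA of sorted cells, fewer cells of a type and less RNA per cell cannot be told apart either.

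The proximal tubule reabsorbs most of the filtered glucose, amino acids, phosphate and protein, through solute carriers and endocytic receptors of its brush border, and it lives largely on fatty acid oxidation. After injury, surviving proximal cells lose part of this equipment and switch on Sox9, a transcription factor of the developing nephron. Cells that repair well switch Sox9 off again. Cells that keep it are known to hold markers of failed repair such as Vcam1 and Cdh6 and to lie in fibrotic areas.

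Of the 15519 genes, 3898 (25.1%) were higher and 3214 (20.7%) lower at d14, called at an adjusted p under 0.05 by edgeR's quasi-likelihood test with Benjamini-Hochberg adjustment. By fitted change the rises were larger than the falls. With a change of at least 2-fold there were 2770 higher (17.8%) and 1587 lower (10.2%) genes, at 8-fold 1467 and 155, and at 16-fold 1008 and 54. Genes called higher held 5.66 to 5.70% of the counts of tested genes in uninjured libraries and 21.2 to 27.2% at d14. Genes called lower held 63.4 to 64.4% in uninjured and 34.0 to 39.9% in d14 libraries. A set of 154 genes called higher had no count in any uninjured library, and 10 called lower had none at d14. The fitted change of such genes is no measure of size, and they were not taken out of the fold counts above.

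**Figure D1:**
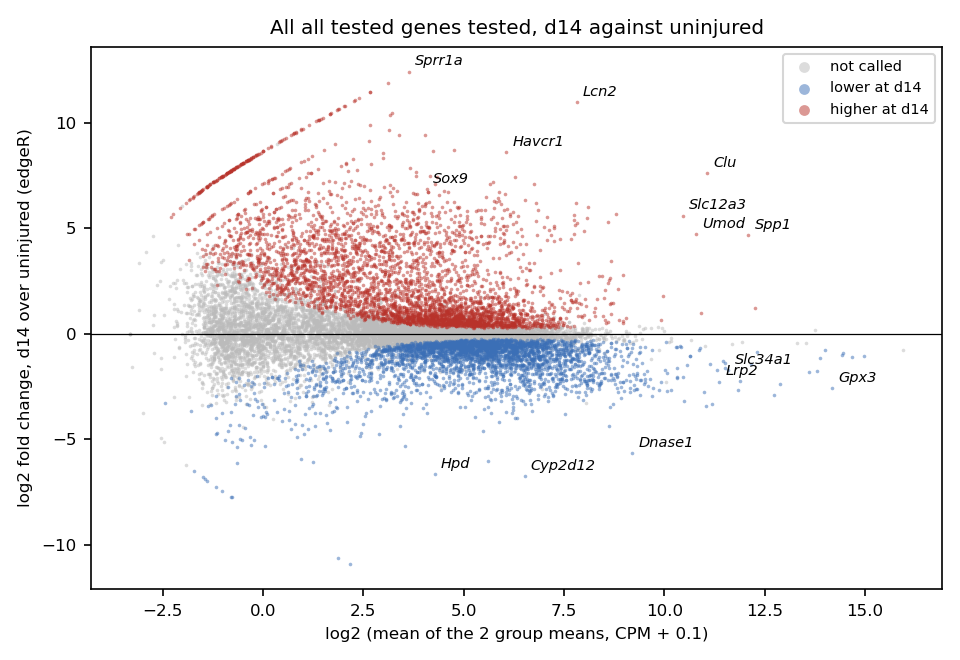
Each point is 1 of 15519 tested genes, with its level (log2 of the mean of both group means in CPM plus 0.1) on the horizontal axis and the fitted log2 fold change of d14 over uninjured on the vertical axis. Red points are the 3898 genes called higher and blue points the 3214 called lower. The oblique rows at the upper left are genes with 0 or 1 count in uninjured cells, whose fitted change is no measure of size.

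Total counts were 51631204, 31585507 and 46598692 in uninjured libraries and 19239354, 20648604 and 30414758 at d14. Values below are read counts relative to library size (CPM), on TMM-scaled library sizes, listed for replicates 1, 2 and 3 of a group, and changes are log2 fold changes of d14 over uninjured with their standard error. Mitochondrial transcripts took 25.1 to 29.2% of counts in uninjured libraries and 15.2, 23.5 and 25.2% at d14, and the TMM factors of the d14 libraries were 1.48, 1.22 and 1.21. The median change of all genes was 0.06 with this scaling and 0.63 without it. Without TMM 7315 genes were higher and 1417 lower, so that 83.8% of the called genes were higher, against 54.8% with it. Changes under 1 on the log2 scale therefore depend on the scaling far more than the larger ones. Correlations of log2 CPM between d14 replicates, across genes, were 0.955 to 0.964, and 52.5% of the variance lay on a component that ordered the groups as uninjured, 48 h and d14.

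Sox9 and Slc34a1 chose the cells, so their levels describe the sort and are not tested here as findings. Sox9 (chromosome 11, 112782224 to 112787760, GRCm38) stood at 0.152, 0.0351 and 0.635 CPM in uninjured and at 38.8, 32.1 and 28.8 CPM in d14 libraries. Slc34a1 (chromosome 13, 55398187 to 55415592) stood at 4796, 4626 and 4807 CPM in uninjured and 994, 1620.5 and 1653 CPM in d14 libraries. The d14 cells thus held Sox9 transcript in every library and still held Slc34a1 transcript in every library, lowest in replicate 1.

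Transport and uptake genes of the proximal tubule were lower at d14 almost throughout. Of 42 proximal solute carriers 37 were lower and none higher, with a median of -2.23, against 0.06 for all genes. Together these carriers summed to 23846 to 26353 CPM in uninjured libraries and to 4424, 5899 and 6034 CPM at d14, which is 17.7, 23.6 and 24.1% of the uninjured mean. The list holds Slc34a1, by which the uninjured cells were sorted. Without it, an alternative added after seeing the data, 36 of 41 were lower (median -2.26) and the d14 sums were 16.9, 21.1 and 21.6% of the uninjured mean. Every d14 library was below every uninjured one. Over all genes 28.9% were without overlap in this direction and 34.4% in the other. The sodium-dicarboxylate cotransporter Slc13a3 was at 836, 744 and 729 CPM in uninjured and 133, 113 and 141 CPM in d14 libraries (log2 change -2.58 ± 0.16). Slc6a19, which takes up neutral amino acids at the brush border, was at 624, 726 and 839 against 55.1, 76.6 and 66.6 CPM (-3.46 ± 0.23), and the phosphate and urate transporter Slc17a1 changed by -2.01 ± 0.14. In none of these did the groups overlap. Among the 5 members that did not pass were Slc7a13 and Slco1a1, transporters of the late, straight segment that were chosen for mention after their values were seen. Slc7a13 was at 634, 421 and 374 against 23.8, 47.8 and 75.5 CPM and Slco1a1 at 276, 171 and 185 against 7.46, 40 and 56.1 CPM, with adjusted p = 0.101 and 0.103 by edgeR. Both passed in a fit without the 48 h libraries (9.78e-04 and 0.0366 by edgeR) and without 48 h replicate 1 (0.00518 and 0.0219 by edgeR).

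Of 13 genes of apical endocytosis 10 were lower and none higher (median -1.49). The megalin gene Lrp2 was at 4659, 3499.9 and 4964 CPM in uninjured and 799, 969.8 and 949 CPM in d14 libraries (-2.27 ± 0.24). Its partner cubilin (Cubn) changed by -2.20 ± 0.18, the adaptor Dab2 by -1.61 ± 0.14, the folate receptor Folr1 by -2.17 ± 0.13 and the recycling protein Ehd1 by -1.49 ± 0.10. Of 23 brush border enzymes and scaffold genes 20 were lower (median -1.60). The scaffold Pdzk1 was at 1115, 1164 and 1105 against 202, 278 and 263 CPM (-2.19 ± 0.17), the carbonic anhydrase Car14 changed by -2.80 ± 0.22, the trehalase Treh by -2.40 ± 0.21 and villin (Vil1) by -1.65 ± 0.17. The only brush border gene called higher was Mme, which encodes neprilysin, at 76.5, 54.3 and 47.1 against 97.1, 106 and 105 CPM (0.79 ± 0.19), a gene named for this exception.

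**Figure D2:**
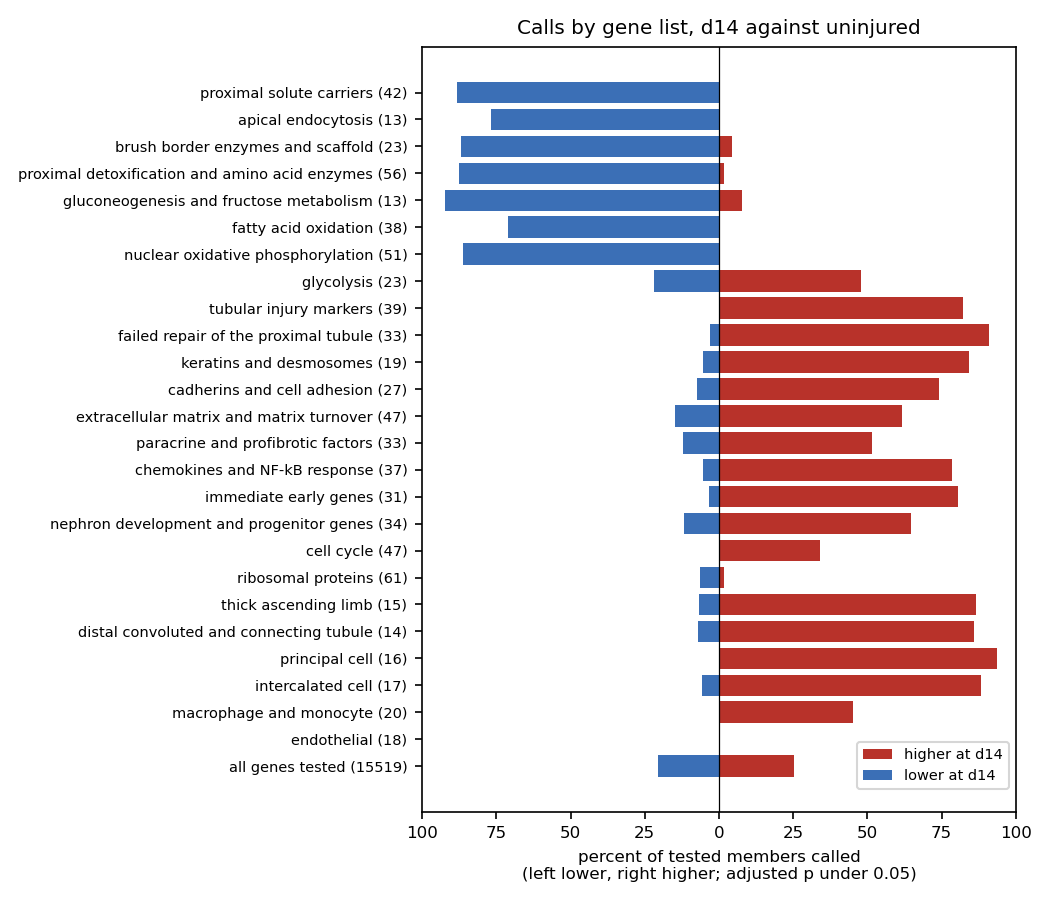
Bars give the percent of the tested members of each gene list (number in brackets) called lower (blue, left) or higher (red, right) at d14, and the bottom bar gives the same for all 15519 genes (20.7% and 25.1%). Proximal transport and metabolism lists extend to the left, injury, keratin and distal segment lists to the right, and the endothelial list has no called member.

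The transcription factors that maintain the proximal programme were lower too, with exceptions. Of 20 listed factors 12 were lower and 4 higher (median -0.87). Hnf4a, a master regulator of proximal identity, was at 959, 1045 and 1031 CPM in uninjured and 270.2, 253 and 262 CPM in d14 libraries (-1.95 ± 0.13). Osr2 was at 15.4, 14.8 and 19.4 against 3.49, 4.2 and 3.46 CPM (-2.16 ± 0.19). In both every d14 library lay below every uninjured one. The fatty acid receptor Ppara, the lowest of the list, was at 54.8, 56.2 and 62.4 against 11.1, 11 and 13 CPM (-2.30 ± 0.39). Among the 4 factors called higher were Dach1 (2.29 ± 0.18), Emx1 (1.73 ± 0.27) and Foxj1, a regulator of motile cilia (4.71 ± 0.72). Dach1 is also known from podocytes and Emx1 is held in the distal convoluted tubule list here.

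The metabolic genes of the proximal tubule fell most. Of 56 detoxification and amino acid enzymes 49 were lower, with a median of -2.66, and their sum at d14 was 10.1, 16.2 and 17.2% of the uninjured mean. The flavin monooxygenase Fmo2 was at 448, 491 and 452 CPM in uninjured and 77.7, 80 and 76.4 CPM in d14 libraries (-2.57 ± 0.13). The kynurenine monooxygenase Kmo was at 149, 122 and 135 against 14.3, 13 and 13.9 CPM (-3.30 ± 0.18), the glycine acyltransferase Glyat changed by -2.60 ± 0.15 and the homogentisate dioxygenase Hgd by -2.73 ± 0.16. None of these 4 overlapped between groups. The 1 member called higher was the oxysterol hydroxylase Cyp7b1 (3.26 ± 1.05), which did not pass without uninjured replicate 2 or d14 replicate 1 or 3 (edgeR adjusted p = 0.0869, 0.073 and 0.0579).

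Glucose production and fructose handling fell in 12 of 13 genes (median -2.38). Fbp1, a committed step of glucose production, was at 1187, 1208 and 1173 CPM in uninjured and 131, 169 and 181 CPM in d14 libraries (-2.89 ± 0.15). The ketohexokinase Khk changed by -2.62 ± 0.19 and the sorbitol dehydrogenase Sord by -2.65 ± 0.22. The exception was the mitochondrial enzyme Pck2, at 8.84, 8.14 and 9.65 against 20.9, 18.8 and 23.5 CPM (1.24 ± 0.19). Fatty acid oxidation followed, with 27 of 38 genes lower and 0 higher (median -1.17), among them the acyl-CoA dehydrogenases Acads (-1.54 ± 0.12) and Acad11 (-1.88 ± 0.15), the electron carrier subunit Etfa (-1.39 ± 0.12) and the malonyl-CoA decarboxylase Mlycd (-1.72 ± 0.16). Leaving out 48 h replicate 1 or 2 brought 1 member to a higher call.

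Glycolysis genes were called in both directions. Of 23 genes 11 were higher and 5 lower (median 0.56), against 25.1 and 20.7% of all genes. The lower share was thus near that of all genes, and without TMM 14 were higher and 2 lower. Hexokinase 1 (Hk1) was at 6.67, 8.35 and 7.41 CPM in uninjured and 247, 228 and 277 CPM in d14 libraries (5.07 ± 0.14, edgeR adjusted p = 7.49e-09). The pyruvate kinase Pkm was at 15.5, 18.9 and 15.9 against 447, 461 and 563 CPM (4.87 ± 0.19), and the phosphofructokinase Pfkp at 2.82, 4.14 and 3.2 against 119, 97.4 and 104 CPM (4.99 ± 0.21). All of these are forms that the mature proximal tubule holds at low levels. The mutase Pgam2 changed by 4.24 ± 0.21 and the enolase Eno2, with 4 counts in uninjured cells, went to 3.31, 6.1 and 2.83 CPM. The 5 lower genes encode the widely expressed steps Gapdh (-1.08 ± 0.12), Ldha (-1.08 ± 0.11), Tpi1 (-0.82 ± 0.13), Pgk1 (-0.56 ± 0.10) and Pgam1 (-0.56 ± 0.12). Without TMM Tpi1 no longer passed and Pgk1 and Pgam1 turned to 0.00752 and 0.00677. The enzymes fixed by the list thus moved in both directions, and the sum of the list was 6494 to 6814 CPM in uninjured and 5706, 5765 and 6189.7 CPM in d14 libraries.

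Respiratory chain genes of the nucleus fell in 44 of 51 cases and rose in 0, with a median of -0.60. Sdhc was at 243, 222 and 225 against 101.4, 109 and 112 CPM (-1.09 ± 0.12), and Ndufs1, Ndufa6 and Uqcrfs1 changed by -0.94 ± 0.11, -0.999 ± 0.12 and -0.94 ± 0.11. Without TMM 6 were lower and 1 higher. Of 13 mitochondrially encoded genes 10 were lower (median -0.91), 3 without TMM and 6 without uninjured replicate 1 or 3. Their sum was 276700 to 338866 CPM in uninjured libraries and 100821, 184511 and 204336 CPM at d14, with mt-Atp8 at -1.44 ± 0.24 and mt-Nd3 at -1.47 ± 0.26. Of 25 cholesterol synthesis genes 10 were lower and 3 higher (median -0.36), but without TMM 6 were lower and 8 higher (median 0.21). Acat2 (-1.45 ± 0.19) and Mvd (-1.45 ± 0.21) were among the lower. Of 24 antioxidant and glutathione genes under Nrf2 control or beside it 12 were lower and 5 higher (median -0.81). Gpx3, the secreted glutathione peroxidase made by the proximal tubule, was at 29376, 32612 and 33902 CPM in uninjured and 6039, 5545 and 4412 CPM at d14 (-2.58 ± 0.22), the largest loss of CPM among the named genes that were called. Me1 changed by -2.18 ± 0.14, Gsta3 by -2.51 ± 0.24 and the export pump Abcc3 by 5.10 ± 0.42.

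The genes with the steepest falls encode enzymes and secreted proteins of the proximal tubule. Cyp2d12, a cytochrome P450 (chromosome 15, 82555072 to 82560403), was at 191, 99.3 and 254 CPM in uninjured and 0.352, 2.81 and 1.96 CPM in d14 libraries (-6.73 ± 0.84, edgeR adjusted p = 3.32e-04). Hpd of tyrosine breakdown (chromosome 5, 123171807 to 123182727) was at 55.2, 35 and 24.3 against 0.211, 0.515 and 0.408 CPM (-6.65 ± 0.92). Dnase1 (chromosome 16, 4036942 to 4040024) was at 1392, 789 and 1256 against 6.79, 31.3 and 29.8 CPM (-5.66 ± 0.71). Lack of overlap between the groups was a condition for the choice of these genes, and in each d14 replicate 1 was the lowest of all. The next were Cyp2d9 (-6.02 ± 0.77), the pyrimidine-degrading Dpys (-5.32 ± 0.71), the organic anion transporter Slc22a7 (-4.85 ± 0.71), the betaine methyltransferase Bhmt (-4.76 ± 0.59) and the collagen VI chain Col6a6 (-4.70 ± 0.98). Cyp2d9 and Cyp2d12 belong to a family of close copies among which the counting divides reads. The androgen-regulated gene Kap was at 16052, 11094 and 9184 against 615, 1940.3 and 2247 CPM (-2.92 ± 0.68).

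Injury genes were still raised at d14. Of 39 tubular injury markers 32 were higher and none lower, with a median of 4.62, and their sum was 1500.1 to 1859 CPM in uninjured and 19755, 15411 and 18409 CPM in d14 libraries. Of the 40 genes listed 29 stand in another list too, such as keratins, so the counts of these lists are not independent. Spp1, which encodes osteopontin, was at 218, 438 and 326 against 8756, 7142 and 9296 CPM (4.68 ± 0.39). Clusterin (Clu; chromosome 14, 65968483 to 65981547), a chaperone that injured tubules secrete, was at 23.4, 19.9 and 21.8 CPM in uninjured and 5199, 3383 and 4171 CPM in d14 libraries (7.61 ± 0.32, edgeR adjusted p = 3.49e-08). Havcr1, the gene of the injury marker KIM-1, was at 0.347, 0.737 and 0 against 121, 155 and 122 CPM (8.62 ± 1.05). Lcn2, the gene of NGAL, was at 0.195, 0.105 and 0.33 against 716, 229.6 and 399.5 CPM (10.98 ± 1.01). No d14 library came near the uninjured range in any of these. The epithelial surface protein Cd24a changed by 6.004 ± 0.22, the calcium-binding S100a6 by 5.86 ± 0.25, the actin-sequestering Tmsb10 by 4.63 ± 0.20 and complement C3 by 5.66 ± 0.68.

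Of 33 genes linked to failed tubule repair 30 rose and 1 fell (median 3.21). This list was built from the study's field and holds Sox9 itself (29 of 32 higher without it), and 29 of its 34 genes stand in another list too, so its count is no separate evidence. Vcam1, an adhesion molecule of leukocyte recruitment, was at 1.3, 2.46 and 1.42 CPM in uninjured and 52.4, 184 and 121 CPM in d14 libraries (6.14 ± 1.14). The developmental cadherin Cdh6 was at 1.85, 0.842 and 0.736 against 37.2, 46 and 33.9 CPM (5.06 ± 0.76). The d14 libraries exceeded the uninjured ones by a wide margin, and Vcam1 varied among them, lowest in replicate 1. The renal developmental factor Pax2 changed by 1.53 ± 0.12, the integrin subunit Itgav by 1.47 ± 0.12, tropomyosin (Tpm1) by 2.07 ± 0.17 and Ncam1 by 3.88 ± 0.29. The chemokine gene Ccl2 was at 0.109, 0.316 and 0.127 against 3.94, 6.21 and 4.11 CPM (4.71 ± 0.62) and the colony-stimulating factor Csf1 changed by 3.32 ± 0.57. The lower gene was Itgb8, an integrin subunit that activates TGF-beta, at 175, 184 and 214 against 69.2, 81.5 and 83 CPM (-1.29 ± 0.13).

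The 8 steepest rises among genes with at least 10 CPM at d14 were led by genes that uninjured libraries lacked. Sprr1a, a small proline-rich protein of the cornified envelope (chromosome 3, 92483952 to 92485895), was at 0 in all uninjured libraries and at 30.1, 22.2 and 21.4 CPM at d14, at least 933-fold higher when set against 3 counts over the uninjured group. The interleukin-36 alpha gene Il1f6 (chromosome 2, 24215418 to 24225702) was also at 0 and reached 19.6, 15.5 and 16.1 CPM, at least 649-fold higher. Sprr2f, a relative of Sprr1a with close copies beside it, was at 0 and reached 17.7, 10.9 and 8.98 CPM, at least 476-fold higher. Arhgap36, a member of the GTPase-activating proteins on chromosome X, reached 6.3, 17.7 and 13.2 CPM from 0 (at least 470-fold) and the lactoperoxidase Lpo 12, 6.97 and 11.6 CPM from 0 (at least 388-fold). The choice required d14 libraries above all uninjured ones, so each of the 3 held these transcripts, and Arhgap36 varied most among them. Besides Lcn2, the rest were the membrane mucin Muc4 and the chloride channel regulator Clca3a2, each with 1 count in uninjured cells. Muc4 was at 24.5, 12.4 and 18.4 CPM at d14, a ratio of 2123 with a 95% Poisson interval of 381 to 83916. Clca3a2 was at 21.1, 17 and 14.8 CPM, a ratio of 1981 (355 to 78292).

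**Figure D3:**
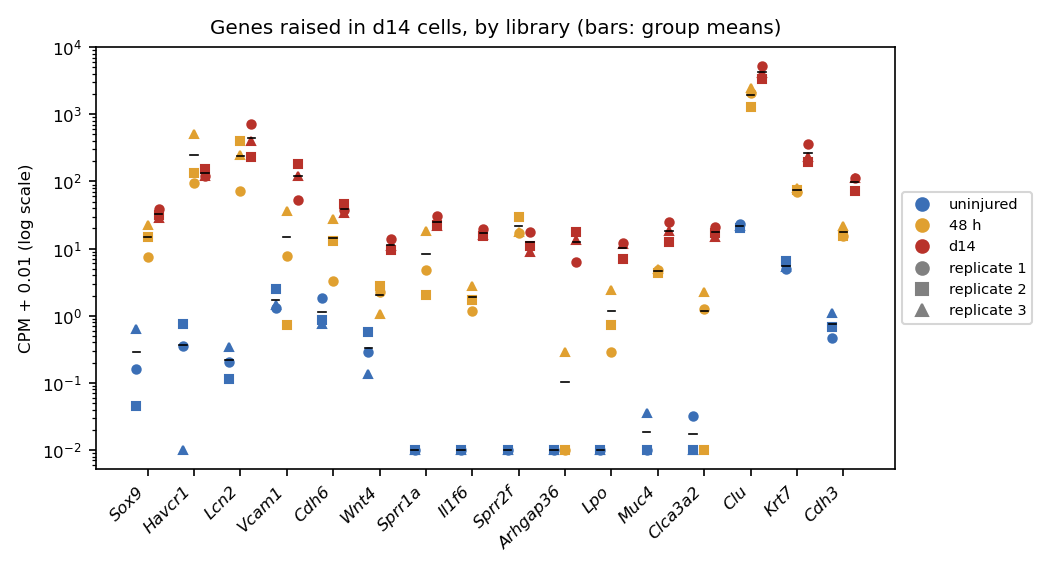
Each symbol is 1 library, coloured by group and shaped by replicate, for 16 genes that were higher at d14, on a log axis of CPM plus 0.01; short bars are group means and the lowest row is a count of 0. For every gene drawn the 3 red symbols lie above the 3 blue ones, which was a condition for choosing the steepest rises. The 48 h symbols lie between them for most, with Sprr2f and Havcr1 among those at 48 h levels similar to or above d14.

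The sequences before the starts of some of these genes are shown to set letters beside the values. They are the 250 bases before the RefSeq start in GRCm38.p6, read 5′ to 3′ on the gene's strand, with the searched motifs in capitals. Sprr1a (chr3:92485882-92486131, minus strand) and Sprr2f (chr3:92364937-92365186, plus strand) are cornified-envelope genes absent from uninjured cells. Mmp7 (chr9:7691840-7692089, plus strand, the first of 2 starts) is a matrix protease described below. Treh (chr9:44672983-44673232, plus strand) is shown because it is the one listed brush border gene with a match to the HNF4 motif, and it does not stand for that list. All sequences shown hold a match, and none stands for the other raised genes. At the first listed start Arhgap36, Lpo, Muc4, Lcn2 and Havcr1 held no searched motif, while Clca3a2 held NF-kB and AP-1 motifs.

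Sprr1a: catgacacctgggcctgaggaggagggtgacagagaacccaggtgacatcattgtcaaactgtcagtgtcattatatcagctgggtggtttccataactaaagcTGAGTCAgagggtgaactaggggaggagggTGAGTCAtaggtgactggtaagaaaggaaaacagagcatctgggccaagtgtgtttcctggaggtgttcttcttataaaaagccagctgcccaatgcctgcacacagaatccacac
Sprr2f: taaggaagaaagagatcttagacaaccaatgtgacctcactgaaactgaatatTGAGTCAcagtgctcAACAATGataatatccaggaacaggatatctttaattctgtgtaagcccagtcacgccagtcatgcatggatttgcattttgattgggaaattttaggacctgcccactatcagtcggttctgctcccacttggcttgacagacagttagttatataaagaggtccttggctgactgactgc
Mmp7: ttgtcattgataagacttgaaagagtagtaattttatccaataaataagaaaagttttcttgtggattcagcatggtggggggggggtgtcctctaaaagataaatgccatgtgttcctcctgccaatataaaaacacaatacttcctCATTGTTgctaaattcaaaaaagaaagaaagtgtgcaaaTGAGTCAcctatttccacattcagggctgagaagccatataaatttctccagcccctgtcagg
Treh: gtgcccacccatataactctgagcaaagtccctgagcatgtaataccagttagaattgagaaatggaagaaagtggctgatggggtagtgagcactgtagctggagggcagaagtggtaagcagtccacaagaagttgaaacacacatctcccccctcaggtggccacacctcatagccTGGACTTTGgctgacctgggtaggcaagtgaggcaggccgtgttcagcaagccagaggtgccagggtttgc

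In Sprr1a the capitals are 2 copies of the AP-1 motif TGANTCA, starting 146 and 116 bases before the start. Sprr2f has AP-1 at 197 and the SOX motif AACAATG at 182 bases, and Mmp7 has SOX on the opposite strand at 102 and AP-1 at 63 bases. In Treh the HNF4 motif CAAAGTCCA lies on the opposite strand 71 bases before the start. Both strands were searched, any start of a gene counted, and 11402 of 15507 tested symbols had a promoter in the table. AP-1 letters stood in 5.78% of these 11402 genes, 6.70% of those called higher and 5.67% of those called lower, and in 6.75% of all 32851 promoters of the table. They stood in 11 of 120 genes of the proximal lists (9.17%), among them Glyat and Hpd, which were lower at d14. Among the 32 injury markers with a promoter 8 (25.0%) held them: Anxa2, Cp, Plaur, Prom1, S100a11, Sprr1a and Sprr2f, all called higher, and Fgb, which was not called. HNF4 letters stood in 0.456% of all genes, 0.303% of those called higher, 0.759% of those called lower and 4 of 120 proximal list genes (3.33%), namely Aadat, Agxt2, Slc3a1 and Treh. The TEAD motif ACATTCC (3.04% of all genes) and the SOX motif (2.13%) stood in 3.23 and 2.22% of genes called higher and the NF-kB motif in 0.337% against 0.228% of all. A match describes letters only.

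Epithelial structure genes shifted towards keratins and claudins of other tubule segments. Of 19 keratin, desmosome and envelope genes 16 were higher, with a median of 5.60 (5.55 with the genes at 0 in uninjured cells held to their bounds). Krt7 was at 5.02, 6.49 and 5.25 CPM in uninjured and 357, 194 and 233 CPM in d14 libraries (5.55 ± 0.24), and Krt19 at 0.0434, 0 and 0.203 against 59.5, 23.9 and 29.1 CPM (8.67 ± 0.63). Krt18 changed by 7.18 ± 0.45, its partner Krt8 by 1.68 ± 0.20, the desmosomal cadherin Dsg2 by 4.59 ± 0.28 and periplakin (Ppl) by 6.59 ± 0.43. The 3 keratins were highest in d14 replicate 1. The gene called lower, Perp (-0.42 ± 0.14), turned to 0.15 without TMM and did not pass without uninjured replicate 1 or any 1 d14 library.

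Of 27 cadherins and adhesion genes 20 were higher and 2 lower (median 2.01). P-cadherin (Cdh3) was at 0.456, 0.667 and 1.09 CPM in uninjured and 114, 73 and 112 CPM in d14 libraries (7.07 ± 0.33), and E-cadherin (Cdh1) at 104, 77.3 and 82.7 against 584, 501 and 649 CPM (2.71 ± 0.15). Epcam changed by 5.88 ± 0.23, L1cam by 5.51 ± 0.24 and the tetraspanin Cd9 by 3.97 ± 0.18. The 2 lower became 1 without uninjured replicate 1 or 3 or d14 replicate 2 or 3. Of 19 tight junction genes 15 were higher and 3 lower (median 2.41). The claudins of the distal nephron Cldn8 (4.34, 4.18 and 3.38 against 144, 141 and 152 CPM, 5.20 ± 0.15), Cldn7 (5.85 ± 0.26), Cldn4 (6.69 ± 0.31) and Cldn19 (4.79 ± 0.22) were higher. Cldn2, the cation pore of the leaky proximal tubule, was lower at 599, 538 and 580.3 against 166, 244 and 206 CPM (-1.48 ± 0.17), as were Cldn10 (-1.63 ± 0.19) and Cldn12 (-1.10 ± 0.12). Of 32 actin cytoskeleton genes 19 were higher and 1 lower, the latter Tln1, and the higher included filamin (Flna, 4.49 ± 0.26), Csrp1 (4.57 ± 0.24) and Capg (5.44 ± 0.32). Vimentin (Vim) was at 3.47, 5.34 and 4.54 against 10.2, 23.3 and 9.42 CPM (1.68 ± 0.47), a call lost without uninjured replicate 1 or 3 or d14 replicate 2, and smooth muscle actin (Acta2) was at 1.32, 1.12 and 2.56 against 1.69, 4.08 and 1.69 CPM (edgeR adjusted p = 0.542).

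Of 47 extracellular matrix and matrix turnover genes 29 were higher and 7 lower (median 1.84), 2 lower without TMM. Thrombospondin 1 (Thbs1), which activates latent TGF-beta, was at 4.15, 4.14 and 5.53 CPM in uninjured and 159, 109 and 104 CPM in d14 libraries (4.75 ± 0.20). The membrane protease Mmp14 changed by 4.61 ± 0.28, the laminin Lama5 by 1.84 ± 0.13 and fibronectin (Fn1) by 3.91 ± 0.54. Mmp7, a protease known as a Wnt target in injured tubules, had 3 counts in uninjured cells and was at 15.2, 4 and 8.44 CPM at d14, a ratio of 354 (121 to 1721). The lowest of the list was Timp3, an inhibitor of matrix proteases, at 2253, 2218 and 2369 against 455, 587 and 628 CPM (-2.03 ± 0.16). The summed level of the list was 4649.6 to 4867 CPM in uninjured and 4839 to 4956 CPM in d14 libraries, so that the many higher and few lower genes gave ranges that overlapped.

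Secreted signals of tubule to stroma were mostly higher. Of 33 paracrine and profibrotic factors 17 were higher and 4 lower (median 1.64). Besides Spp1 the EGF receptor ligand Tgfa was at 0.239, 0.632 and 0.406 CPM in uninjured and 12.1, 9.22 and 8.84 CPM in d14 libraries (4.59 ± 0.48). The macrophage growth factor Il34 was at 4.28, 2.35 and 2.41 against 25.5, 36 and 23.4 CPM (3.21 ± 0.35), and Fgf9 changed by 2.38 ± 0.29. Endothelin 1 (Edn1), a vasoconstrictor and the list's highest member, was at 0.0434, 0.0351 and 0.279 against 18, 13.8 and 15.6 CPM (6.96 ± 0.93). The profibrotic cytokines Tgfb1 and Tgfb2 changed by 1.64 ± 0.29 and 3.26 ± 0.53. The 4 lower genes were Bmp4 (-0.997 ± 0.31), Bmp7 (-0.43 ± 0.16), Fgf1 (-1.73 ± 0.29) and Vegfa (-1.05 ± 0.15), of which Bmp4 and Bmp7 lost the call without uninjured replicate 1 or d14 replicate 1, among others, and without TMM, where Bmp7 turned to 0.12.

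Wnt ligands were mostly higher, and the genes that respond to canonical Wnt signals included higher and lower ones. Among 11 ligand and secretion genes with enough counts 7 rose and 0 fell: Wnt4, Wnt5a, Wnt7a, Wnt7b, Wnt9b, Wnt10a and the carrier Wls. Wnt9b was at 0.738, 0.807 and 0.635 CPM in uninjured and 34.9, 16.9 and 29.3 CPM in d14 libraries (5.22 ± 0.40), Wnt4 at 0.282, 0.562 and 0.127 against 13.8, 9.58 and 11 CPM (5.18 ± 0.55) and Wnt7b at 0.109, 0 and 0.254 against 27.2, 12.3 and 13.2 CPM (7.04 ± 0.74). None of these 3 overlapped between groups. Wnt7a had no uninjured count and was at 3.8, 1.43 and 2.01 CPM, Wnt10a was at 7.32, 2.14 and 5.74 CPM, and Wls (0.48 ± 0.13) did not pass without uninjured replicate 2 (edgeR adjusted p = 0.0671). Leaving out uninjured replicate 3 or 48 h replicate 2 brought 1 ligand gene to a lower call. Of 20 canonical response genes 9 were higher and 4 lower (median 0.73), against 25.1 and 20.7% of all genes. The lower share was thus near that of all genes, and without TMM 12 were higher and 3 lower. The Wnt receptor ligase Rnf43 (3.20 ± 0.31), Cd44 (5.71 ± 0.50) and Mmp7 were among the higher. The lower were Notum (-3.24 ± 0.62), Sp5 (-2.45 ± 0.35), Fzd1 (-1.09 ± 0.15) and Lgr4 (-0.77 ± 0.12). Lgr4 did not pass without TMM (-0.20, edgeR adjusted p = 0.182). Axin2, a widely used reporter of the pathway, was at 0.217, 0.527 and 0.228 against 1.41, 2.14 and 0.898 CPM and did not pass (edgeR adjusted p = 0.12; 0.0208 in the fit of the 6 libraries and 0.0459 without TMM).

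Of 17 Notch pathway genes 9 were higher and 2 lower. Jag1, a ligand, was at 2.56, 1.16 and 2.79 CPM in uninjured and 46.5, 43.7 and 39.8 CPM in d14 libraries (4.29 ± 0.28). Notch3 changed by 3.42 ± 0.38, the coactivator Maml2 by 3.69 ± 0.26 and the target Hes1 by 2.45 ± 0.28. The 2 lower became 1 when any library except uninjured replicate 1 or 48 h replicate 2 or 3 was left out. Of 24 YAP and TEAD targets and partners 10 were higher and 1 lower (18 higher without TMM). Ptpn14 changed by 4.94 ± 0.22, the receptor kinase Axl by 3.36 ± 0.28 and Yap1 by 1.05 ± 0.13, while the lower gene Ddah1, a proximal tubule enzyme of dimethylarginine breakdown, changed by -2.01 ± 0.16.

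Listed genes of the developing nephron were mostly higher at d14. Of the 40 genes listed 17 stand in another list too, such as Gata3 and Irx2 in lists of distal segments. Labelled cells of those segments and expression in proximal cells cannot be told apart for such genes. Of 34 measured members 22 were higher and 4 lower (median 2.77). The list holds Sox9, by which the d14 cells were sorted, and without it 21 of 33 were higher (median 2.39). Tfap2b, a factor of the distal nephron, was at 2.24, 4 and 1.88 CPM in uninjured and 107, 109.7 and 145 CPM in d14 libraries (5.50 ± 0.29). Sox4 was at 2.69, 5.02 and 3.33 against 140.0, 122 and 108 CPM (5.08 ± 0.26), and Pou3f3 at 21.5, 17.8 and 11.7 against 141, 138 and 172 CPM (3.15 ± 0.20). Sox11 had 1 count in uninjured cells and was at 3.73, 2.73 and 2.34 CPM. Not every renal factor moved: the lower genes included Osr1 (-2.77 ± 0.53), Lgr4 and Bmp7, and the 4 became 2 without uninjured replicate 1 or d14 replicate 1 or 2. Six2 and Eya1, which mark nephron progenitors of the embryo, had no count in any d14 library.

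Cell cycle genes were called less firmly. Of 47 members 16 were higher and none lower (median 1.95), and the sum was 175 to 183 CPM in uninjured and 396, 343 and 275 CPM in d14 libraries. The count was 6 to 10 without any 1 uninjured library or without d14 replicate 1 or 2, but 28 without 48 h replicate 2 and 31 in the fit of the 6 libraries. Mki67, a marker of cycling cells, was at 3.67, 3.97 and 1.65 CPM in uninjured and 34, 28.3 and 14.9 CPM in d14 libraries (3.06 ± 1.04, edgeR adjusted p = 0.043). Of the fits that left out 1 library, those without 48 h replicate 1 or 2 kept its call. It had edgeR adjusted p = 0.0608 to 0.141 without any other 1 library, and lost the call without the filter on low counts (0.116) and with the replicate block (0.0544). Uhrf1 changed by 3.58 ± 0.60, and the mitotic genes Bub1b and Kif23 by 3.21 ± 0.66 and 2.98 ± 0.62. Of 31 arrest and p53 genes 16 were higher and 2 lower (median 0.63). The inhibitor Cdkn1a was at 2.71, 3.62 and 3.35 against 25.9, 20.3 and 19.9 CPM (2.78 ± 0.43). Cdkn2b, with 4 counts in uninjured cells, was at 7.43, 4.39 and 6.07 CPM, and the antiproliferative Btg2 changed by 3.65 ± 0.33.

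Early response and inflammatory genes were higher as groups. Of 31 immediate early genes 25 were higher and 1 lower (median 2.53). These genes also respond to tissue dissociation, which was done on ice for every group, and the part of it in the difference was not tested. Socs3, a brake on cytokine signals, was at 0.89, 1.44 and 1.12 CPM in uninjured and 29.4, 27.3 and 37.7 CPM in d14 libraries (4.79 ± 0.35). Klf4 changed by 3.29 ± 0.26, Klf6 by 2.12 ± 0.20, and the AP-1 members Jun and Fos by 2.94 ± 0.28 and 2.80 ± 0.42. The lower gene Dusp1 (-1.05 ± 0.32) did not pass without uninjured replicate 3 or d14 replicate 1 or 3. Of 37 chemokine and NF-kB genes 29 were higher and 2 lower (median 2.22). Tnfaip2 was at 3.89, 4.56 and 5.33 against 96.6, 86.1 and 84.3 CPM (4.28 ± 0.33), and the noncanonical NF-kB genes Relb and Nfkb2 changed by 4.13 ± 0.38 and 2.22 ± 0.22. The chemokine Ccl20 had no uninjured count and was at 9.86, 2.41 and 3.32 CPM. The lower genes were Tnfaip8, at 231, 315 and 266 against 43.2, 48.9 and 50.1 CPM (-2.51 ± 0.24), and Cxcl12 (-1.74 ± 0.49), which did not pass without uninjured replicate 1 or d14 replicate 1 or 3.

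Of 22 complement and coagulation genes 12 were higher and 2 lower. Ceruloplasmin (Cp), kept in this list as a plasma protein, was at 2.41, 1.51 and 4.11 against 141, 171 and 108 CPM (5.69 ± 0.42), the inhibitors Cd59a and Cfi changed by 2.82 ± 0.20 and 2.49 ± 0.33, and factor B (Cfb) was lower (-1.61 ± 0.19). Interferon-induced genes rose in 19 of 34 cases and fell in 0 (median 1.57), such as Irf1 (2.19 ± 0.30), Irf9 (1.55 ± 0.25) and the RNA sensor Ddx58 (1.28 ± 0.17). Leaving out d14 replicate 2 brought 2 interferon genes to a lower call. Of 18 class I presentation genes 13 were higher and 2 lower (median 1.39), with H2-K1 at 107, 102 and 95 against 212, 368 and 342 CPM (1.60 ± 0.19), Tapbp at 1.52 ± 0.17 and Psmb10 at 1.99 ± 0.29. The 2 lower became 1 without d14 replicate 1. Of 7 class II genes only Cd74 was called higher, at 44, 66.4 and 31 against 91.4, 287 and 192 CPM (2.01 ± 0.68). This call held in none of the fits without an uninjured library, 48 h replicate 1 or d14 replicate 2 or 3. In other settings more of the list passed, with 5 higher without TMM or with voom and 3 in the fit of the 6 libraries.

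With TMM few ribosomal protein genes were called, and folding and stress genes were called in both directions. Of 61 ribosomal protein genes 1 was higher and 4 lower, with a median of -0.08, but without TMM 46 were higher and none lower. Rps25 (-0.54 ± 0.10), Rpl28 (-0.54 ± 0.13) and Rps2 (-0.36 ± 0.11) were lower with TMM and turned positive without it (0.0266, 0.0350 and 0.21), and Rpl12 was higher (0.38 ± 0.14). The 4 lower became 2 without uninjured replicate 1 or d14 replicate 2 or 3, and Rpl12 did not pass without any 1 uninjured library or d14 replicate 1 or 3. Of 26 unfolded protein and amino acid stress genes 4 were higher and 5 lower, against 25.1 and 20.7% of all genes. The lower share was thus near that of all genes. Without TMM 16 were higher and 3 lower, and 2 were higher without uninjured replicate 1 or d14 replicate 3. Their sum was 3257 to 3760 CPM in uninjured and 2733, 2730 and 2988 CPM in d14 libraries. The serine pathway enzyme Shmt2 changed by -2.23 ± 0.18, Vldlr by -0.90 ± 0.12 and Herpud1 by -1.46 ± 0.21, against 3.48 ± 0.38 for the asparagine synthetase Asns.

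Transcripts of the nephron beyond the proximal tubule were far higher in d14 cells. Of 15 thick ascending limb markers 13 were higher and 1 lower (median 4.33), and their sum was 414 to 520.4 CPM in uninjured and 3573, 6153 and 6478 CPM in d14 libraries. Uromodulin (Umod), the most typical product of this segment, was at 123, 163 and 102 against 2309, 3697 and 4267 CPM (4.73 ± 0.27). The potassium channel Kcnj1 was at 9.88, 10.4 and 10.3 against 335, 441 and 492 CPM (5.37 ± 0.17), and Bsnd, the barttin gene, changed by 4.33 ± 0.20. The sodium-potassium-chloride cotransporter Slc12a1, target of loop diuretics, was at 44.6, 42.7 and 35.7 against 283, 512 and 455 CPM (3.35 ± 0.34). Replicate 1 was the lowest d14 library in each of these. The lower gene was Cldn10, which the proximal tubule also expresses.

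Markers of the distal convoluted and connecting tubule rose in 12 of 14 cases and fell in 1 (median 2.69), with sums of 1442 to 1547 CPM in uninjured and 4950.0, 6811 and 7157 CPM in d14 libraries. The thiazide-sensitive cotransporter Slc12a3 was at 42.2, 86.8 and 43.4 CPM in uninjured and 1751, 3336 and 3224 CPM in d14 libraries (5.59 ± 0.43). Tmem52b was at 18.6, 24 and 15.5 against 558, 763 and 930.0 CPM (5.28 ± 0.26). The calcium-binding Calb1 changed by 2.57 ± 0.15, the magnesium channel Trpm6 by 4.92 ± 0.37 and the sodium-calcium exchanger Slc8a1 by 3.37 ± 0.27. The lower gene was klotho (Kl, -1.19 ± 0.17). Principal cell markers rose in 15 of 16 cases and fell in 0 (median 4.14), with Aqp2 at 4.19, 3.93 and 5.84 against 88.1, 77.4 and 116 CPM (4.33 ± 0.20), the sodium channel subunit Scnn1b at 2.24, 3.76 and 2.84 against 117, 85.1 and 131 CPM (5.25 ± 0.23) and Gata3 at 5.62 ± 0.35. Of 17 intercalated cell markers 15 were higher and 1, Car2 (-0.79 ± 0.16), lower (median 2.99). The ammonia transporter Rhcg was at 5.65, 5.41 and 7.28 against 107, 115 and 138 CPM (4.30 ± 0.16) and the proton pump subunit Atp6v1b1 at 6.21, 7.34 and 7.51 against 119, 128 and 178 CPM (4.34 ± 0.18). Thin limb markers rose in 6 of 8 measured cases, and Aqp1, which the proximal tubule shares, fell. The sodium pump subunit Atp1b1, more abundant in distal segments, changed by 0.99 ± 0.18. Uninjured cells were sorted through a proximal gene and d14 cells were not, so labelled cells from these segments and expression of these genes in proximal cells cannot be told apart here.

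**Figure D4:**
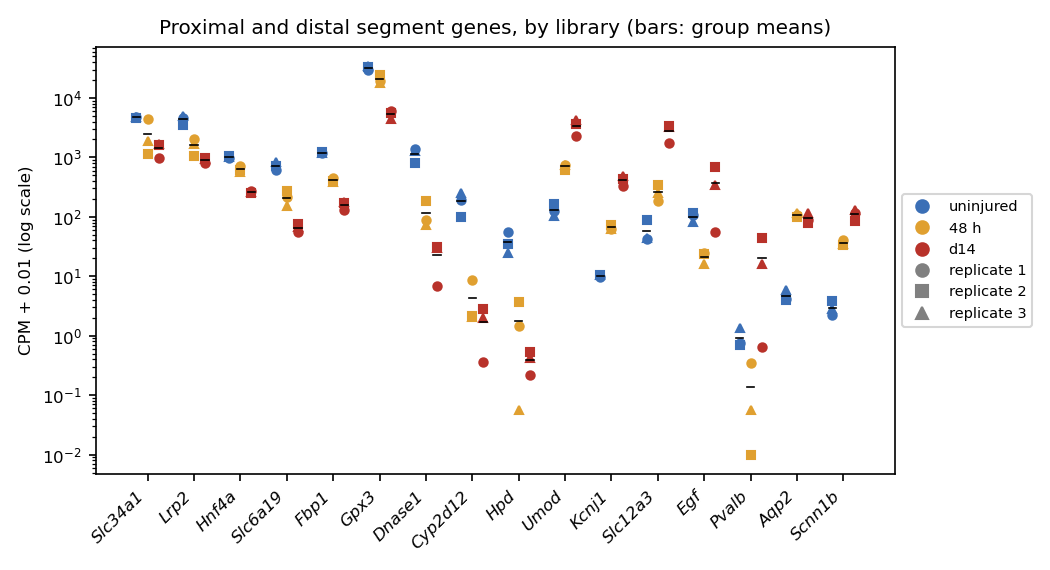
Symbols give single libraries for 9 proximal genes (left) and 7 distal genes (right) on a log axis of CPM plus 0.01, with short bars at group means. The red d14 symbols lie below the blue uninjured ones for all 9 proximal genes and above them for Umod, Kcnj1, Slc12a3, Aqp2 and Scnn1b, while Egf and Pvalb overlap because of d14 replicate 1.

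Markers of cells outside the tubule were low, and only some differed, where 25.1% of all genes were higher and 20.7% lower. Of 18 endothelial markers none was called in either direction (median -1.22), and 10 were lower in the fit of the 6 libraries or without 48 h replicate 1. Their sum was 112 to 220.5 CPM in uninjured and 56.2, 100.3 and 49.4 CPM in d14 libraries, with Kdr at 16.1, 21.6 and 36.5 against 5.67, 10.3 and 5.88 CPM and Pecam1 at 8.51, 10.9 and 15.7 against 4.19, 7.09 and 4.3 CPM. Of 20 macrophage and monocyte markers 9 were higher and none lower, 5 without uninjured replicate 1 or 3 or d14 replicate 2. Their sum was 40.6 to 52.5 CPM in uninjured and 168, 197 and 102 CPM in d14 libraries. Cd14, which injured tubules also express, was at 0.847, 1.19 and 0.939 against 20.1, 25.8 and 19.2 CPM (4.46 ± 0.45), Cd68 at 0.782, 1.47 and 1.27 against 5.32, 5.03 and 4.24 CPM (2.06 ± 0.33), and Adgre1 at 0.586, 1.93 and 0.685 against 3.27, 4.43 and 1.96 CPM (edgeR adjusted p = 0.0669). The part of these cells in the inflammatory lists above was not tested. Of 7 measured neutrophil markers 1, Mmp9 (2.22 ± 0.37), was higher, their sum was 3.15 to 8.42 CPM in uninjured and 3.43 to 6.21 CPM in d14 libraries, and Mpo, Elane, Ngp and Camp had no count at d14. Of 6 lymphocyte markers none was called, with Ptprc at 5.36, 5.23 and 5.03 against 8.34, 10.2 and 6.34 CPM and Cd52 at 0.955, 1.61 and 0.736 against 0.528, 1.74 and 0.762 CPM. Of 14 fibroblast and pericyte markers 3 were higher and 2 lower, shares below those of all genes, with Col1a1 at 0.0869, 0 and 0.381 against 3.13, 4.2 and 1.9 CPM (4.23 ± 1.07) and Ren1 at 5.23, 1.23 and 2.82 against 0.211, 0.277 and 0 CPM (-4.28 ± 1.05). The 3 became 1 without uninjured replicate 1 or 2 or d14 replicate 2 or 3, and the 2 became 1 without d14 replicate 2 or 3. Of 14 podocyte and parietal cell markers 5 were higher and 1 lower, the latter lost without any 1 uninjured library or d14 replicate 1 or 3. Nphs1 was at 3.63, 3.33 and 4.19 against 2.08, 2.85 and 1.99 CPM.

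**Figure D5:**
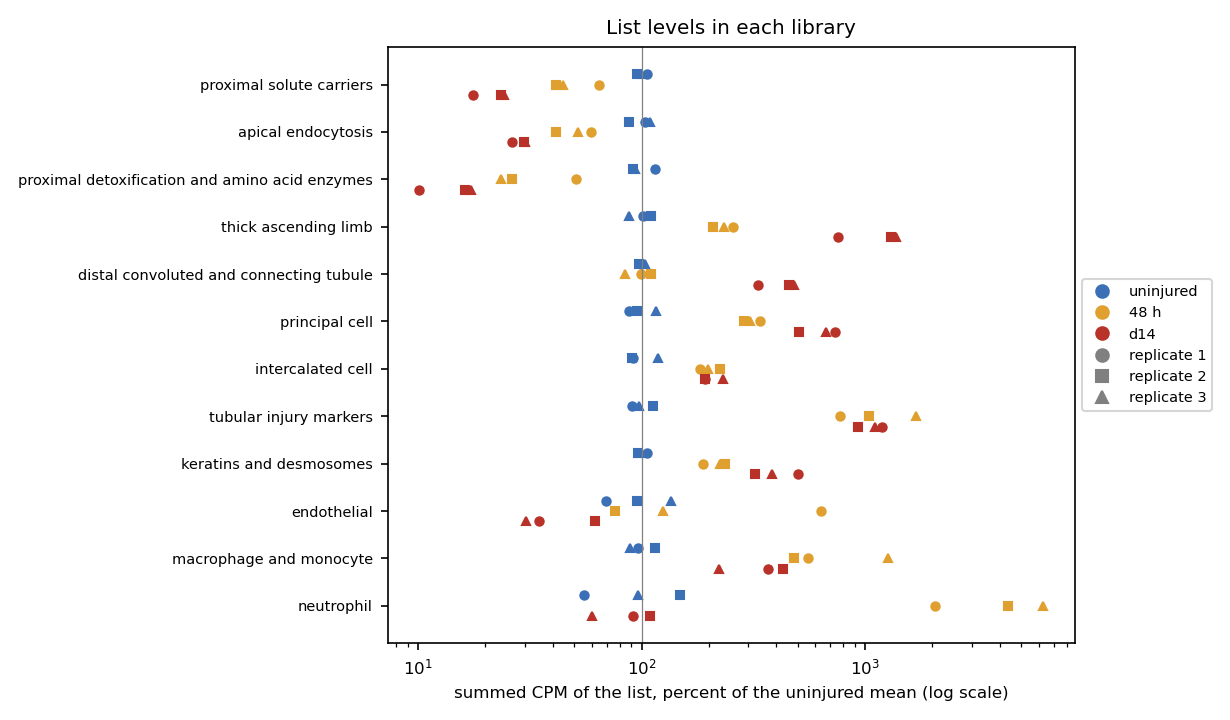
Symbols give the summed CPM of 12 gene lists in single libraries as percent of the uninjured mean, on a log axis with a line at 100. For proximal lists the d14 symbols lie between 10.1 and 30.2%, for the distal segment, injury and keratin lists between 192 and 1378%, and for neutrophil markers they lie among the uninjured symbols.

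Many proximal transport and metabolism genes were lower in late than in early Sox9 cells, and distal segment genes higher. Against 48 h, 2604 genes (16.8%) were higher and 2533 (16.3%) lower at d14 by the same edgeR test. Both comparisons use the d14 libraries, so their values are given side by side and not as support for each other. Of the 42 solute carriers 27 were lower than at 48 h and none higher, as were 30 of 38 fatty acid oxidation genes and 12 of 13 gluconeogenesis genes. Slc6a19 was at 213, 269 and 149.9 CPM at 48 h and changed by -1.67 ± 0.21 from there to d14, Fbp1 was at 456, 404 and 385 CPM and changed by -1.37 ± 0.14, and Hnf4a was at 727, 618 and 577 CPM and changed by -1.29 ± 0.12. Each of these 3 genes lay between the uninjured and d14 levels at 48 h, but list sums did not always do so. At 48 h the fatty acid oxidation sums were 70.9, 169 and 67.9% of the uninjured mean. The gluconeogenesis sums were 66.8, 115 and 68.0%, so that replicate 2 stood above the uninjured mean in both. Of 39 injury markers 12 were higher and 1 lower at d14 than at 48 h. Clu was at 2091, 1287 and 2489 CPM at 48 h and changed by 1.12 ± 0.24 to d14, whereas Havcr1 (-0.90 ± 0.69), Lcn2 (0.90 ± 0.62) and Spp1 (-0.70 ± 0.33) did not pass the test.

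Of the thick ascending limb markers 11, of the distal convoluted and connecting tubule markers 13, of the principal cell markers 10 and of the intercalated cell markers 9 were higher at d14 than at 48 h. Umod was at 747, 624 and 752 CPM at 48 h (change to d14 2.27 ± 0.24) and Slc12a3 at 182, 349 and 247 CPM (3.42 ± 0.39), while Aqp2 was at 107, 99.6 and 115 CPM and did not pass (-0.20 ± 0.17, edgeR adjusted p = 0.41). Of the 47 cell cycle genes 9 were lower and none higher than at 48 h, a share near the 16.3% of all genes. Their sum at 48 h was 939, 244 and 690.1 CPM, with replicate 2 below every d14 library. Of 61 ribosomal protein genes 52 were lower. Without TMM d14 against 48 h had 6812 genes higher and 934 lower, so the ribosomal count in particular depends on the scaling.

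The steepest rises from 48 h to d14 among genes with at least 10 CPM were in Pvalb, Arhgap36, Bcat1, Megf6, the ABC transporter Abca13 and the serotonin receptor Htr3a. Abca13 was at 11.9, 12.2 and 11.6 CPM in uninjured, 24.1, 9.05 and 10.7 CPM in 48 h and 239, 542 and 499.7 CPM in d14 libraries (change from 48 h 4.84 ± 0.45). Htr3a, with 3 counts in uninjured cells, was at 0.561, 1.29 and 0.922 CPM at 48 h and 16.9, 17.4 and 28.3 CPM at d14 (4.58 ± 0.48), and Megf6 at 0.561, 0.144 and 0.0461 and 15.7, 6.97 and 8.63 CPM. In these 3 every d14 library was also above every uninjured one. Lack of overlap with the 48 h libraries was a condition of the choice. Bcat1, which starts the breakdown of branched-chain amino acids, had a different course, with 2.65, 6.25 and 2.87 CPM in uninjured, 0.168, 0 and 0.184 CPM in 48 h and 5.63, 16.2 and 9.31 CPM in d14 libraries. Its call against uninjured (1.41 ± 0.48) was lost without uninjured replicate 1 or 3 or d14 replicate 2 or 3. The steepest falls from 48 h were in the myeloid genes Chil3, S100a8, S100a9, Cxcr2 and Slfn4 and in the glutathione transferase Gsta1. Cxcr2 was at 11.9, 12.5 and 29.7 CPM at 48 h and 0.176, 0.198 and 0.218 CPM at d14 (-6.48 ± 0.47), close to the 0.174, 0.176 and 0.203 CPM of uninjured libraries. Gsta1 was at 0.369, 0.737 and 0.66 CPM in uninjured, 28.4, 35.8 and 19 CPM in 48 h and 0.422, 0.396 and 0.898 CPM in d14 libraries.

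The 3 d14 libraries were not alike in every respect. Replicate 1 had the lowest proximal sums (17.7% of the uninjured mean for solute carriers, against 23.6 and 24.1%), the lowest thick ascending limb sum (760% against 1309 and 1378%) and the highest keratin sum (500.2% against 323 and 383%). Among genes with a mean of at least 50 CPM at d14, the widest ranges over its libraries were in Egf, Kap, Vcam1, Lars2 and the mitochondrial ribosomal RNAs mt-Rnr1 and mt-Rnr2. Egf, made by the thick ascending limb and distal convoluted tubule, was at 109, 114 and 80.5 CPM in uninjured and 55.3, 694 and 345 CPM in d14 libraries. Its replicate 1 fell below the uninjured range while the others lay well above it, and Egf passed the edgeR test without that library (2.36, edgeR adjusted p = 2.47e-04) but not with it (1.85 ± 0.73, 0.0716). With it Egf passed by the DESeq2 Wald test (0.0333) and by edgeR without TMM (0.031). Pvalb, the marker of the early distal convoluted tubule, followed the same order at 0.738, 0.702 and 1.32 CPM in uninjured and 0.634, 44.2 and 16.2 CPM in d14 libraries (4.45 ± 1.25), and its call was lost without any 1 uninjured library (edgeR adjusted p = 0.0609 to 0.0824), with voom (0.299), without the filter (0.0641), in the fit of the 6 libraries (0.0612) and with the replicate block (0.0812). Replicate 1 had the largest TMM factor (1.48) and the smallest mitochondrial share (15.2%), and the part of either in these differences was not tested.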

How the data were processed

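RNA of sorted cells was sequenced in 9 libraries, 3 per group. The deposited table holds expected counts (estimated counts that need not be whole) for 55385 genes, made by the authors before deposit. RSEM 1.2.28, STAR 2.6.1, bcl2fastq 2.20, R 3.6.3 and DESeq2 1.26.0 are listed in the submitters' processing notes, beside the builds mm10 and GRCh38. Per the labels' protocols the libraries were strand-specific and polyadenylated RNA was selected. The sources used here give neither the annotation nor the strand option of the counting. Reads that fit several genes are divided among them by RSEM, so values of close copies such as the Sprr2, Cyp2d and Clca genes are uncertain. All columns were matched to a sample by name, and 0 columns of other samples were left over.

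Counts were rounded and filtered with edgeR's filterByExpr (minimum count 10, minimum total 15), which left 15519 genes. TMM factors, edgeR's quasi-likelihood fit over all 9 libraries (edgeR 4.0.16, R 4.3.3) and Benjamini-Hochberg adjustment over all tested genes gave the calls at adjusted p under 0.05. The labels call the replicates biological, without naming the animals, so p-values measure the spread between these samples. With 3 against 3 an exact permutation test of 1 value cannot go below 0.1, and none is reported. A count of 0 allows up to 3 counts over the group, 0.0263 CPM in uninjured and 0.0332 CPM in d14 cells, and this and the Poisson intervals cover counting error only. The fit was tested on simulated data. Alternatives were edgeR with DESeq2 size factors, no TMM, the DESeq2 1.42.0 Wald test, limma 3.58.1 voom with sample quality weights, no filter, a minimum count of 50, only the 6 libraries compared, no mitochondrial genes, a replicate block and leaving out each library.

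The genes and 48 lists were chosen with earlier results of these data known. Many lists share genes, so their counts are not independent of each other. Named genes are 10 given by name, the 8 largest rises and 8 largest falls among calls whose higher group averaged 10 CPM or more, without overlap of the groups or a predicted-gene symbol, and the 8 largest gains and 8 largest losses of CPM. Added to these are up to 4 called members of each list with the smallest p (or the 2 highest where none was called), the 6 largest rises and 6 largest falls against 48 h, and the 6 genes of widest range among d14 libraries. Other genes, such as the exceptions and extremes of a list and widely used markers, were named after their values were seen. Coordinates come from GENCODE M21 (GRCm38, the build mm10), of which 54487 gene IDs matched with their version. Promoters come from RefSeq (GRCm38.p6). For 83.6% of them, bases after the start lay near the start of a GENCODE transcript of the gene on the same strand. Python 3.11.15 ran the remaining steps.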

Additional observations from a re-analysis of the deposited data

How the results depend on the processing

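Scaling mattered most. Without TMM 7315 genes were higher and 1417 lower against uninjured, and 6812 higher and 934 lower against 48 h. Requiring a 2-fold change left 1587 lower genes. All other alternatives kept the 4 counts within 1.5 times. Apart from leaving out 1 library, they gave 3366 (minimum count 50) to 4922 (voom) genes higher against uninjured. Leaving out 1 library gave 3209 to 4426 higher and 2596 to 3564 lower genes, and 1755 to 2496 and 1827 to 2645 against 48 h. With the replicate block 3608 genes were higher and 3007 lower against uninjured (2289 and 2125 against 48 h). Same-numbered d14 and uninjured libraries did not deviate together (r of -0.0133, 0.0165 and 0.0190 across genes). With 3 libraries per group this gives no sign of pairing by number, but it cannot exclude a shared batch.

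Of 5072 values for 283 named genes under the alternatives 4914 kept their direction and side of the threshold, 100 lost a call, 33 gained one and 25 changed sign. Without TMM the change against uninjured turned to 0.0266 for Rps25, 0.0350 for Rpl28, 0.21 for Rps2, 0.00752 for Pgk1, 0.00677 for Pgam1, 0.15 for Perp, 0.12 for Bmp7, 0.39 for Cd52, 0.41 for Lars2 and 0.0513 for mt-Rnr2, while the median of all genes moved from 0.06 to 0.63. Leaving out 1 library gave -0.75 to 0.20 for Cd52, -0.89 to 1.64 for Chil3, -2.58 to 0.53 for S100a8, -1.05 to 0.15 for Slfn4, -0.49 to 0.22 for Gsta1 and -0.84 to 0.23 for Lars2, none of which was called against uninjured. Chil3 was at -0.21 with voom. Gsta1 was at -0.0179 with no filter, -0.0111 with a minimum count of 50, -0.0611 in the 6 libraries and -0.0162 without mitochondrial genes. The cause was not tested.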
